A study of Mus musculus with 2 samples.

Results

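Open chromatin in mouse cardiac progenitor cells (CPCs) was described here for the peaks whose midpoint lay more than 50 kb and at most 100 kb from the transcription start site to which the deposited peak list assigned them, and whose width was under 1500 bp. The 2130 peaks that met this rule, called the members below, were 8.12% of the 26232 distinct peaks in the list. ATAC-seq, which tags accessible DNA with adapters carried by the Tn5 transposase, was performed on CPCs at day 5 of directed differentiation of E14 Tg(Nkx2-5-EmGFP) embryonic stem cells, which carry a green fluorescent reporter driven by Nkx2-5, a homeobox gene of early heart cells. The labels name no sort, give the strain as C57BL/6 and passages 16-20, and the protocol used the growth factors BMP4, Activin A, VEGF, bFGF and FGF10. The 2 samples were replicates of 1 untreated group, so no comparison between conditions was made. The deposit held 1 peak list for both replicates, with positions but no heights or scores, so read depth was unknown and no value below has a replicate error.

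Distal elements such as enhancers bind sequence-specific transcription factors, which displace nucleosomes and leave accessible DNA that Tn5 can enter. Enhancers can act over long stretches of sequence and skip genes, so the nearest start site is a label and not a measured target. In heart progenitors, GATA, NKX2, MEF2, T-box, HAND and LIM-homeodomain factors such as Isl1 act through such elements, while CTCF marks sites that anchor chromatin loops and separate domains.

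The central 200 bases are shown for 8 of the 10 members nearest the start site of a cardiac regulator, because they carry the letters that the motif counts below rest on. They are from the plus strand of mm9, 5′ to 3′, with gene, position and sequence on each line. Capitals mark matches on either strand to the letters of 9 factor families. The letters were AGATAA or TGATAA for GATA factors, TNAAGTG for NKX2 factors and CTAATG for Isl1 and its relatives. For the T-box family they were AGGTGTNA, for the TEAD family CATTCCA, for MEIS and its relatives TGACAG, for E-box factors CAGCTG and for AP-1 TGANTCA. MEF2 was searched by its AT-rich box.
Hey1, chr3:8717632-8717831: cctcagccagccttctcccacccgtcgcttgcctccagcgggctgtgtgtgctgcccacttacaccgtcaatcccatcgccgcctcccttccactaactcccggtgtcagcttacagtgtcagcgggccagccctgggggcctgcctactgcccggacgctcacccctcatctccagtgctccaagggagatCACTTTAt
Meis2, chr2:115836263-115836462: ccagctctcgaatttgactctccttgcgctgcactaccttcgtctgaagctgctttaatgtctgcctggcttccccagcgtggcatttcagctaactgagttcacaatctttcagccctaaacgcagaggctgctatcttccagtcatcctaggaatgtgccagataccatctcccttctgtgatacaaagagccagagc
Hand1, chr11:57699565-57699764: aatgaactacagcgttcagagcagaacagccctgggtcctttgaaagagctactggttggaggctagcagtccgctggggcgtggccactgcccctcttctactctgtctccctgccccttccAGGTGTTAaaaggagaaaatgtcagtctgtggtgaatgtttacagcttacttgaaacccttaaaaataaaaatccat
Tbx5, chr5:120344864-120345063: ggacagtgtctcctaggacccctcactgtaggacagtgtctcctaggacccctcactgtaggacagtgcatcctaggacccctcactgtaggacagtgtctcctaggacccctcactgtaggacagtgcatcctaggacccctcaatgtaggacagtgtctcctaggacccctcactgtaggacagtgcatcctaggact
Tead1, chr7:119967194-119967393: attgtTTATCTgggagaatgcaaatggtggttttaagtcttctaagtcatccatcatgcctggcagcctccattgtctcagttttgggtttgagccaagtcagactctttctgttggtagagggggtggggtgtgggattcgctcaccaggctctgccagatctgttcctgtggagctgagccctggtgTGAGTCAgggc
Hey1, chr3:8731654-8731853: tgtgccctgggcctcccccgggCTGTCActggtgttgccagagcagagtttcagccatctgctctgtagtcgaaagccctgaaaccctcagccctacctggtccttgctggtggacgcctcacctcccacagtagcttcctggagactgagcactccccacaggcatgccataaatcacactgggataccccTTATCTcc
Foxp1, chr6:99150738-99150937: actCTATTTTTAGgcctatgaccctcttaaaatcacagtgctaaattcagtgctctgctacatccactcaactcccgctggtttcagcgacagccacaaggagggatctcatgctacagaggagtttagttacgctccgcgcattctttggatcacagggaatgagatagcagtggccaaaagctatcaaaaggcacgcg
Irx3, chr8:94391133-94391332: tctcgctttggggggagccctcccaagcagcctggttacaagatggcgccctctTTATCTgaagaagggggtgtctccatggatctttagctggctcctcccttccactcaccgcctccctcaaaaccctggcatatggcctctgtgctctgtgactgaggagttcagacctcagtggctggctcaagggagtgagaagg

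The Hey1 member nearer the start site held an NKX2 match in its central 200 bases, and the farther one held a GATA and a MEIS match. The Tead1 member held a GATA and an AP-1 match. The members of Tbx5 and Meis2 held no match to these letters. The Tbx5 member was a tandem array: 83.0% of the positions in its central 300 bp began a 12-base word that occurred again in the same window. Reads from such arrays are hard to place, and the part of this in the peak was not tested.

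The 3 widest members with a match to the CTCF core in their central 200 bases are shown in the same way, because this core gave the largest ratio of members to flanking sequence among the 17 motifs. Capitals mark the core on whichever strand it was found.
A330074K22Rik, chr8:122812304-122812503: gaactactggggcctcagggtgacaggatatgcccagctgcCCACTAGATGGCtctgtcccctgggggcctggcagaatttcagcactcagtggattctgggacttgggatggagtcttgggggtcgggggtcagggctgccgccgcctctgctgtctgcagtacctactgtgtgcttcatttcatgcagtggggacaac
Pax2, chr19:44758802-44759001: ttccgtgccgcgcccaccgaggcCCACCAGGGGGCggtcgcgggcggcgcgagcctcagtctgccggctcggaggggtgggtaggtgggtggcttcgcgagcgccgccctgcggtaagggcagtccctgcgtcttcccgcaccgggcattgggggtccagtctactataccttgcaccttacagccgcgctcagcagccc
Irf8, chr8:123320256-123320455: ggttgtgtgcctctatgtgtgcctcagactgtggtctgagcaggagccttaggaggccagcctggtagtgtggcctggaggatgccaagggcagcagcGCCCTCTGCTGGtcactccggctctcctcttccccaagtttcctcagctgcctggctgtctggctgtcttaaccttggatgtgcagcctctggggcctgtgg

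Across all 2130 members, 2045 (96.0%) had an accession found in the RefSeq gene table, and 336 (15.8%) were assigned to an accession of the non-coding class, against 9.79% of all peaks in the list. The number of members fell with distance, from 642 between 50 and 60 kb to 513, 401, 325 and 249 in the following steps of 10 kb. Of the members, 901 (42.3%) lay upstream of the assigned start site and 1229 (57.7%) downstream. Downstream members were the larger group in each of the 5 steps. The upstream share was 44.6% among peaks at 10 to 50 kb and 40.5% at 100 to 250 kb, and neither difference from the members was past counting error. Here and below, a difference between shares is called past counting error where its Newcombe interval, widened for 68 comparisons, left out 0. All intervals cover counting error over peaks in this list, not variation between differentiations.

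Just inside the near limit were a member 50037 bp upstream of Mmp2 and one 50038 bp downstream of Pex14, and just outside it lay peaks 49995 bp upstream of Lrrc55 and 49994 bp downstream of Sgsm3. At the far limit, members lay 99959 bp upstream of Chn2 and 99943 bp downstream of Manba, and the next peaks lay 100007 bp from Dpf3 and 100128 bp from Rxfp2. The widest members had 1495 bp (Wnt7b) and 1493 bp (Gm7616), and the first peaks kept out by width, at Mapk8 and Morn1, had 1500 bp.

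The distance classes cover unequal amounts of sequence, so peaks were also counted per Mb. With distances measured anew to the nearest GENCODE protein coding start site, 374 Mb of the autosomes and X lay 50 to 100 kb from one and held 1998 peaks under 1500 bp, or 5.34 per Mb (exact 95% Poisson interval 5.11 to 5.58). Peaks at 10 to 50 kb numbered 7.48 per Mb (7.28 to 7.67) and those at 100 to 250 kb 3.29 per Mb (3.13 to 3.46), so the density at 50 to 100 kb was between those of the neighbouring classes, with intervals that did not overlap. Of these 1998 peaks, 1495 were members by the deposited distance, so the density is that of a set that overlaps the members and is not the same.

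**Figure D1:**
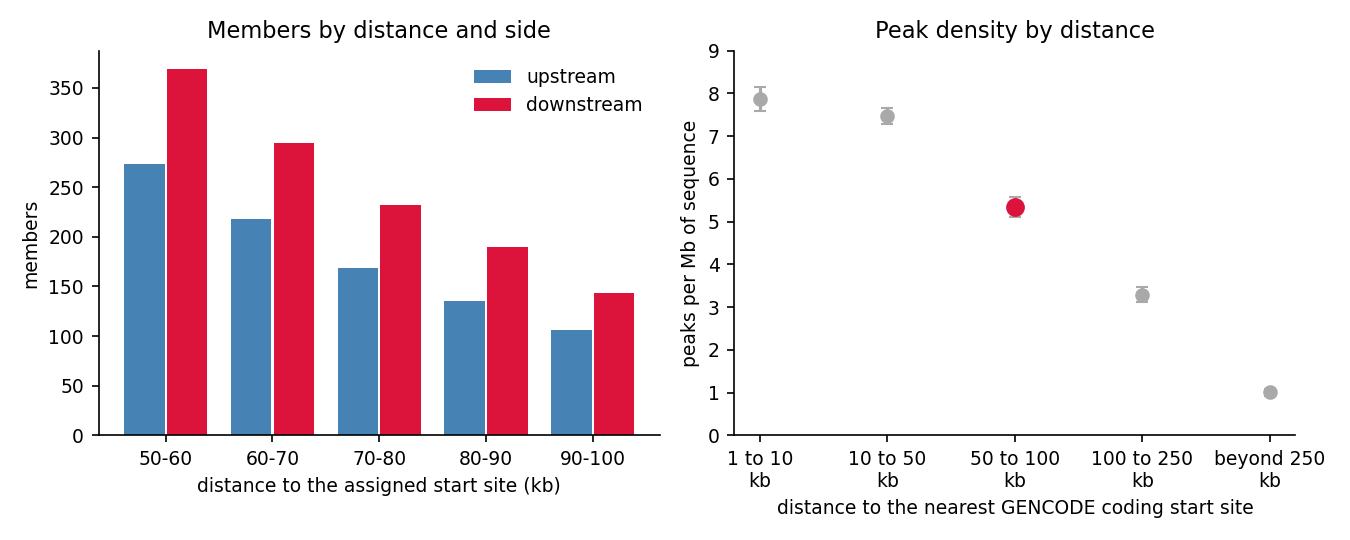
Left, number of members by distance to the assigned start site in steps of 10 kb, upstream and downstream. Right, peaks under 1500 bp per Mb of sequence at each distance from the nearest GENCODE protein coding start site, with exact 95% Poisson intervals and the class at 50 to 100 kb by GENCODE, 1495 of whose 1998 peaks are members, in red. Counts fall from 369 to 143 downstream and from 273 to 106 upstream, and density falls from 7.48 to 5.34 to 3.29 per Mb across the middle 3 classes.

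The label of distance was checked against GENCODE vM1. Of the members, 1672 (78.5%, 95% Wilson interval 76.7 to 80.2%) lay over 50 kb from every protein coding start site, 327 (15.4%) lay 10 to 50 kb from one, and 131 (6.15%) within 10 kb. Counting start sites of all transcripts, coding or not, 1017 members (47.7%) were still over 50 kb away, whereas 112 (5.26%) lay within 1 kb of one, and 70 of these had no coding start site within 1 kb. The label therefore did not hold for every member in this annotation. Fam134b, a receptor for autophagy of the endoplasmic reticulum, had 4 members, and their midpoints lay 25, 519, 1674 and 3437 bp from a coding start site of Myo10, a myosin of filopodia. A member assigned to Acvr1, a type I BMP receptor, at 51363 bp lay 806 bp from another start site of Acvr1 itself. A member assigned to Plxnd1, a semaphorin receptor, lay 76 bp from a start site of Tmcc1.

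Members were narrower than nearer peaks and wider than farther ones. Their median width was 849.5 bp (95% interval 836 to 864 bp) with quartiles of 705 and 1041 bp, against 878 bp (871 to 887 bp) at 10 to 50 kb and 804 bp (790 to 813 bp) at 100 to 250 kb, all under the same limit of 1500 bp. That limit left out 169 of the 2299 peaks at 50 to 100 kb, or 7.35%, against 9.08% and 5.61% in those classes. The narrowest member had 384 bp. After Wnt7b and Gm7616, the widest were assigned to Psmg4 (1484 bp), Arl4c (1479 bp) and Mir148a (1479 bp). The Wnt7b member, upstream of a gene for a secreted Wnt ligand, had a CpG-rich centre with a GC content of 63.3%, and the other 4 had GC contents of 47.0 to 59.3% and no CpG-rich centre.

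By GENCODE, 1131 members (53.1%, 51.0 to 55.2%) had an intergenic midpoint, 921 (43.2%, 41.1 to 45.4%) an intronic one and 78 (3.66%, 2.94 to 4.55%) lay in an exon. The share in exons was lower than at 10 to 50 kb (7.14%), a difference of -3.47 percentage points that was past counting error. It exceeded that at 100 to 250 kb (2.58%) by 1.09 points, which was not. The intergenic share stood between 49.3% and 58.3% in those classes, and neither difference was past counting error. Upstream and downstream members differed in place. Downstream, 478 of 1229 members (38.9%) lay inside the annotated body of the assigned gene, and upstream 46 of 901 (5.11%) did. A further 229 upstream members (25.4%) and 246 downstream members (20.0%) lay inside another gene only. A member can lie in its own gene downstream only where that gene is long, and upstream only where the annotated body reaches past the assigned start site. The contrast between sides in own-gene share is therefore set largely by how the sides are defined. The median annotated length was 66.7 kb for genes with a downstream member, 46.1 kb for those with an upstream one and 23.2 kb for all genes with a peak.

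The members were GC-rich against their surroundings. The median GC content of the central 300 bp was 53.3% (95% interval 53.0 to 53.7%), and 1973 of 2130 members had a higher value than the mean of their own flanking windows, which were of the same length 3 kb to either side and had a median of 45.0%. The median was 54.0% at 10 to 50 kb and 52.3% at 100 to 250 kb. A centre was taken as CpG-rich where CpG reached 0.6 of its expected frequency with 50% GC or more, which held in 142 members (6.67%, 5.68 to 7.81%) and in 0.402% of flanking windows, a difference of 6.26 percentage points that was past counting error. The shares at 10 to 50 kb (8.20%) and 100 to 250 kb (5.88%) were within counting error of the members. Of the 112 members within 1 kb of any GENCODE start site, 25 (22.3%) were CpG-rich, against 117 of the other 2018 (5.80%). CpG-rich members had a median width of 1031.5 bp (950 to 1071 bp). Exonic members were CpG-rich in 30.8% (21.6 to 41.7%), intronic ones in 2.71% (1.85 to 3.98%).

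**Figure D2:**
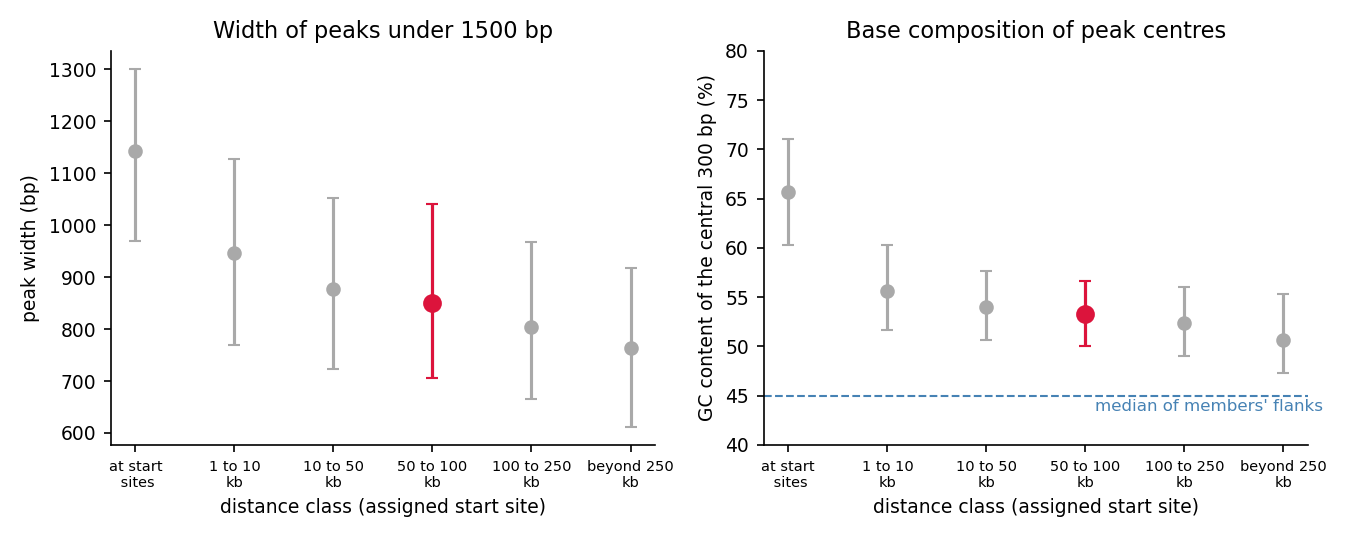
Median (point) and quartiles (bars) of peak width in bp, left, and of the GC content of the central 300 bp in percent, right, for peaks under 1500 bp in 6 distance classes, with the members in red. The dashed line is the median GC content of the members' flanking windows, 45.0%. The members' medians, 849.5 bp and 53.3%, lie between those of the classes on either side, and the vertical axes do not start at 0.

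The letters of 17 factor families were searched in the central 300 bp. In members, TGACAG of MEIS factors was found in 28.0%, the E-box CAGCTG in 26.2%, the GATA letters in 26.1%, GGGCGG of SP and KLF factors in 17.8%, the NKX2 letters in 12.7%, those of AP-1 in 11.3%, those of Isl1 in 10.3% and those of TEAD in 9.48%. Other families were rarer: CCGGAA of ETS factors stood in 6.48%, the T-box letters in 4.79%, the CTCF core in 4.37%, the SRF box in 1.78% and the MEF2 box in 0.423%, or 9 members. In all 26232 peaks, most of which lie nearer genes, the GATA letters stood in 14.8%, GGGCGG in 41.8% and the CTCF core in 2.96%. A base could count toward more than 1 family, and 345 members (16.2%) held no match to any.

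Against their own flanks, members had more matches of 6 families past counting error. The CTCF core was 18.5 times as frequent as in flanks (4.37% against 0.236%, a difference of 4.13 points, 95% interval 3.32 to 5.09). GGGCGG was 4.43 times as frequent (17.8% against 4.02%), CCGGAA 2.45 times (6.48% against 2.65%), the TEAD letters 1.89 times (9.48% against 5.01%), the E-box 1.86 times (26.2% against 14.1%) and the MEIS letters 1.42 times (28.0% against 19.7%). Members had fewer matches of the NKX2 letters (12.7% against 16.3%) and of the homeodomain core TAATTA (5.45% against 8.16%), also past counting error. Neither was past it with central windows of 200 bp, where the differences were -2.53 and -1.79 points, and with flanks at 5 kb the NKX2 difference was -1.68 points and not past it either. GATA letters (26.1% against 28.8%) and Isl1 letters (10.3% against 12.04%) were lower than in flanks, with differences of -2.74 points (-5.03 to -0.41) and -1.75 points (-3.34 to -0.10) that were within the widened intervals.

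Members and flanks differ in base composition, so each set of letters was also read backwards, which keeps the bases but not their order or the number of CpG. The backward TEAD letters stood in 1.78% of members and 2.34% of flanks, and the backward MEIS letters in 16.5% and 15.0%. For GATA the backward letters stood in 11.5% of members and 25.1% of flanks, a difference of -13.6 points against -2.74 points for the forward letters. Backward TAATTA stood in 2.54% of members and 7.73% of flanks, the backward NKX2 letters in 11.6% and 14.2% and the backward Isl1 letters in 4.79% and 6.38%. The letters that were lower in members were thus also lower when read backwards. Whether they were lower beyond base composition was not tested. For other families the backward letters were no control for composition. GGGCGG backwards lies in the same GC box as the forward letters (GGGCGGG holds both), and stood in 17.5% of members and 4.04% of flanks. The backward E-box and CTCF core gain a CpG, which is rare in this genome. The backward E-box was found in 17 members and 16 flanking windows (0.798% and 0.378%, a ratio of 2.11), and the backward CTCF core in 0 members, which allows a share of up to 0.141%, and 1 flanking window. CCGGAA loses its CpG when read backwards, and stood so in 19.4% of members and 15.1% of flanks. How much of the excess of these 4 families followed base composition was therefore not tested.

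The matches of the CTCF core were concentrated at the midpoint. Within 100 bp of it there were 0.181 matches per kb, against 0.0117 per kb at 1000 to 1500 bp, a ratio of 15.4. The ratio was 6.11 for GGGCGG, 2.54 for ATGCAAAT of POU factors, 2.44 for CCGGAA, 2.24 for the E-box and 2.04 for TEAD. It was 1.73 for the MEF2 box, which had few matches, 1.37 for T-box, 1.09 for GATA, 1.01 for Isl1, 0.830 for NKX2 and 0.543 for the homeodomain core TAATTA. Letters of GATA and Isl1 were thus about as dense within 100 bp of the midpoint as at 1000 to 1500 bp. Those of NKX2 and the homeodomain core were sparser near the midpoint. GATA matches numbered 260 and 258 in the 2 central bins of 100 bp, and 192 to 216 per bin at 100 to 300 bp. These densities were not corrected for base composition.

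**Figure D3:**
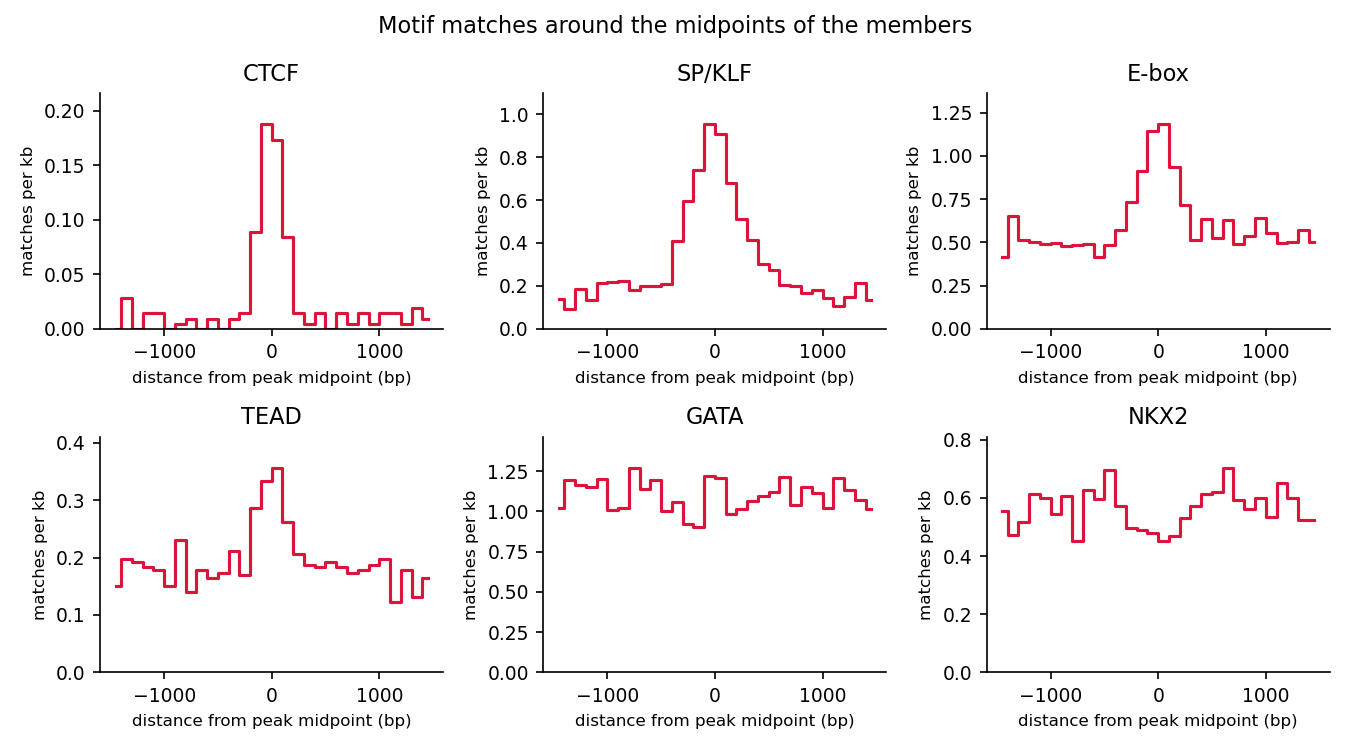
Matches per kb in bins of 100 bp, by distance from the peak midpoint in bp, summed over the 2130 members for 6 motifs, with a separate vertical scale from 0 for each. CTCF, SP/KLF, E-box and TEAD letters peak at the midpoint and NKX2 letters dip. GATA letters stand at 1.22 per kb within 100 bp of it and 1.12 per kb at 1000 to 1500 bp, and are sparser at 100 to 300 bp. Densities are not corrected for base composition.

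None of the 17 families differed past counting error between members and peaks at 10 to 50 kb or at 100 to 250 kb. With plain 95% intervals, GATA letters were 3.05 points more frequent in members than at 10 to 50 kb (0.92 to 5.23) and less frequent than at 100 to 250 kb, by a difference of -3.14 points (-6.10 to -0.20). The CTCF core was less frequent than at 10 to 50 kb, by a difference of -1.74 points (-2.76 to -0.62). TEAD letters were above the nearer class, GGGCGG above the farther one and POU and forkhead letters below the farther one by the same measure.

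Matches were set beside other properties of the members. The 93 members with a CTCF core had a median width of 757 bp (711 to 798 bp) against 849.5 bp for all members, and only 1 of them lay within 1 kb of a GENCODE start site. Their GC content (53.0%) and intergenic share (52.7%) were near those of all members. The 555 members with GATA letters had a lower median GC content of 51.0% and were CpG-rich in 1.80%. GATA and NKX2 letters stood together in 104 members and GATA and Isl1 letters in 70. Of the 5 families GATA, NKX2, Isl1, MEF2 and T-box, 209 members held letters of at least 2, which is 9.81% of members against 11.0% of flanks.

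Recurring words of the kind seen at Tbx5, at 50% or more of the positions in the centre, were found in 89 members (4.18%) and in 0.686% of flanking windows. The difference was 3.49 points (2.67 to 4.45). The shares at 10 to 50 kb and 100 to 250 kb were 3.75% and 4.49%. Of these 89 members, 5.62% had another peak within 10 kb, and their median gap to the nearest peak was 53.0 kb against 32.4 kb for all members. This measure was chosen after the sequences had been seen, and among the listed genes it was also met by a member of Arid1b 98570 bp downstream and by the member of Myom2.

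Members stood mostly alone. Another peak of any class or width lay within 10 kb of 418 members (19.6%, 18.0 to 21.4%). This share was lower than at 10 to 50 kb (27.7%), with a difference of -8.09 percentage points. It was 7.27 points higher than at 100 to 250 kb (12.4%), and both differences were past counting error. A peak just over 10 kb out can have a peak at its own start site within 10 kb, and the rule keeps members farther away. By GENCODE distances, peak density also fell from 7.48 to 5.34 to 3.29 per Mb across these classes. The contrast is therefore set in part by the distances that define the classes. The quartiles of the gap were 12.9 and 61.4 kb, and 765 members (35.9%) had no other peak within 50 kb. Members with a close neighbour were wider, with a median of 915.5 bp (879 to 951 bp). Joined across gaps of at most 10 kb, the members formed 141 runs of 2, 19 of 3 and 1 of 4, which together held 343 members. The longest run spanned 21.9 kb with 3 members upstream of Chd6, a chromatin remodeller. It was followed by 21.1 kb with 3 members in Casz1, a zinc finger factor required for heart development, and by the 20.5 kb run of 4 members assigned to Fam134b that lay around the Myo10 start sites.

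The members were spread over all chromosomes but Y. The X chromosome held 49 members, or 0.294 per Mb against 0.842 per Mb on the autosomes, a ratio of 0.349 (95% interval 0.263 to 0.463). The peaks of X were fewer in general: 7.89% of X peaks were members, against 8.13% of autosomal peaks.

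The members were assigned to 1644 genes. Of these, 1278 (77.7%) had 1 member, 275 had 2, 67 had 3 and 24 had 4 or more. Genes with a member had 3.32 peaks of any class on average, against 1.71 for all 15351 genes with a peak. A gene with more peaks has more chances of a member, so this contrast is set in part by the selection. A peak within 1 kb of the start site was listed for 966 of the genes with a member (58.8%), against 74.6% of all genes with a peak. All genes with a peak include those that have a start site peak alone, while a gene with a member needs none. This contrast too is therefore set in part by the selection. Counted over peaks, the assigned gene had a start site peak for 59.3% of members, against 60.2% at 10 to 50 kb and 57.1% at 100 to 250 kb. Neither difference was past counting error. For 231 genes (14.1%) every listed peak was a member, and 194 of these had only 1 peak. The absence of a start site peak says only that none was listed in both replicates.

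Btbd11 had the most members, 6 between 53702 and 93784 bp away, and 5 of them lay in its introns. Its distances ran from more than 1 start site, since members inside the gene body were given on both sides. Tns1, which links actin to focal adhesions, had 5 members of 944 to 1308 bp, all in its introns and 55218 to 99558 bp downstream. Ccnl1, a cyclin involved in splicing, had 5 intergenic members downstream, 1 of them with a CTCF core. Tead1, a factor of the Hippo pathway required in heart muscle, also had 5. A further 20 genes had 4 members each, and the 6 of these with the largest total width were Casz1, Tspan9, Med13l (a Mediator subunit linked to heart defects), Fam134b, Bcor and Irf8. The 4 members of Casz1 had widths of 1168 to 1377 bp and GGGCGG in each, against 17.8% over all members. Of the 4, 3 lay in the body of Casz1. Those of Tspan9, a tetraspanin, lay in its introns. Of the 10 genes named, a start site peak was listed for 7 and none for Casz1, Fam134b and Bcor.

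The 13 lists of genes with known roles were read against the members. Of 21900 protein coding genes in the RefSeq table, 6.13% had at least 1 member, and of those with any peak 9.82% did. Among 41 cardiac regulators, 11 had a member (26.8%, 95% Wilson interval 15.7 to 41.9%), and among 55 signalling genes 17 did (30.9%, 20.3 to 44.0%). The shares were 26.1% of 23 endothelial and blood genes, 26.5% of 34 adhesion and guidance genes and 17.4% of 23 genes of ion channels and calcium handling. They were 7.69% of 26 sarcomere genes, 9.52% of 21 SWI/SNF subunits, 9.52% of 21 pluripotency genes, 8.33% of 24 neural genes, 13.3% of 15 skeletal muscle genes, 10.0% of 10 smooth muscle genes, 5.56% of 18 liver genes and 6.67% of 15 housekeeping genes. The cardiac and signalling lists were drawn in part from genes that the study named, and are not independent of such cells. In the neighbouring classes, the cardiac regulators had a peak in 53.7% at 10 to 50 kb and 41.5% at 100 to 250 kb, where all coding genes had 17.2% and 3.92%.

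A gene can have a member only where sequence at that distance is nearest to it, and the amount of such sequence differs between genes. With distances to GENCODE coding start sites, 31 of 41 cardiac regulators had any sequence 50 to 100 kb from their start sites that was nearest to them, with a median of 67.5 kb, and 12 of these (38.7%, 23.7 to 56.2%) had a peak there. Among all 7444 such genes the median was 50.0 kb and the share 20.4%. Per Mb of that sequence there were 9.61 peaks for the cardiac regulators (5.95 to 14.7), 10.5 for the signalling genes (7.06 to 14.9), 14.0 for the endothelial and blood genes (6.38 to 26.5), 3.65 for the adhesion and guidance genes (1.89 to 6.38) and 5.34 for all. The values of some lists of other roles were as high. There were 13.7 for the sarcomere genes (5.49 to 28.1), 18.5 for the liver genes (5.04 to 47.4) and 32.7 for the housekeeping genes (3.95 to 118). These rest on 7, 4 and 2 peaks, and the 7 sarcomere peaks lay at 3 genes. Channel genes had 6.40 (3.07 to 11.8), and the other 5 lists had 0 to 8.66. The intervals of these lists held 5.34, as did those of the liver, housekeeping, and adhesion and guidance genes. Besides the cardiac regulators and the signalling genes, the endothelial and blood genes and the sarcomere genes had intervals above 5.34. A higher density was therefore not particular to the cardiac regulators or the signalling genes. The intervals treat peaks as independent.

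Several cardiac regulators had members in pairs or groups. Hand1, a basic helix-loop-helix factor of heart tube and left ventricle, had 3 upstream, at 54015, 72321 and 81158 bp. By GENCODE all 3 were nearer to a coding start site of Gm11003, at 48399, 66705 and 75542 bp. The first member also lay 5267 bp from a start site of Gm12244. It held T-box, forkhead and MEIS letters, the second member GATA and E-box letters and the third AP-1 letters. No peak was listed at the Hand1 start site. Tbx5, a T-box factor of the first heart field, had members 60291 and 87730 bp downstream, the nearer being the tandem array shown above. Tbx20, a T-box factor of heart progenitors, had 2 upstream with widths of 728 and 690 bp and a gap of 1800 bp between them, chr9:24652500-24653227 with GATA letters and chr9:24655028-24655717 with TEAD and AP-1 letters.

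Irx3, an Iroquois factor of the ventricular conduction system, had 2 upstream, at 65679 and 71163 bp, both with GATA letters. Hey1, a Notch target, had 2 upstream, at 50693 and 64715 bp. Meis1 and Meis2, TALE homeobox factors, had 1 intronic member each, as did Foxp1, a forkhead factor, whose member held 1 of the 9 MEF2 boxes. The Meis1 member was nearer to a GENCODE coding start site of Gm16140, at 51706 bp. Those of Meis2 and Foxp1 lay 31419 and 37826 bp from another GENCODE coding start site of the same gene. Six2 and Msx1, homeobox factors of second heart field and outflow tract mesenchyme, had 1 each, 78486 and 80336 bp upstream. The 5 members of Tead1 lay on both sides of its start site. The one 83886 bp upstream was nearer to a GENCODE coding start site of Parva, at 75734 bp. Over the list there were 21 members with widths of 550 to 1210 bp, of which 13 lay upstream and 14 were intergenic. GATA letters stood in 8 of them, E-box letters in 7, TEAD letters in 3, NKX2 letters in 2 and Isl1 letters in 0, and 4 held none of the 17 motifs. The shares over all members were 26.1%, 26.2%, 9.48%, 12.7% and 10.3%, with 16.2% holding none. The counts in this list were not tested against them. A start site peak was listed for 10 of the 11 genes, and 18 of the 21 members were over 50 kb from any GENCODE coding start site.

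**Figure D4:**
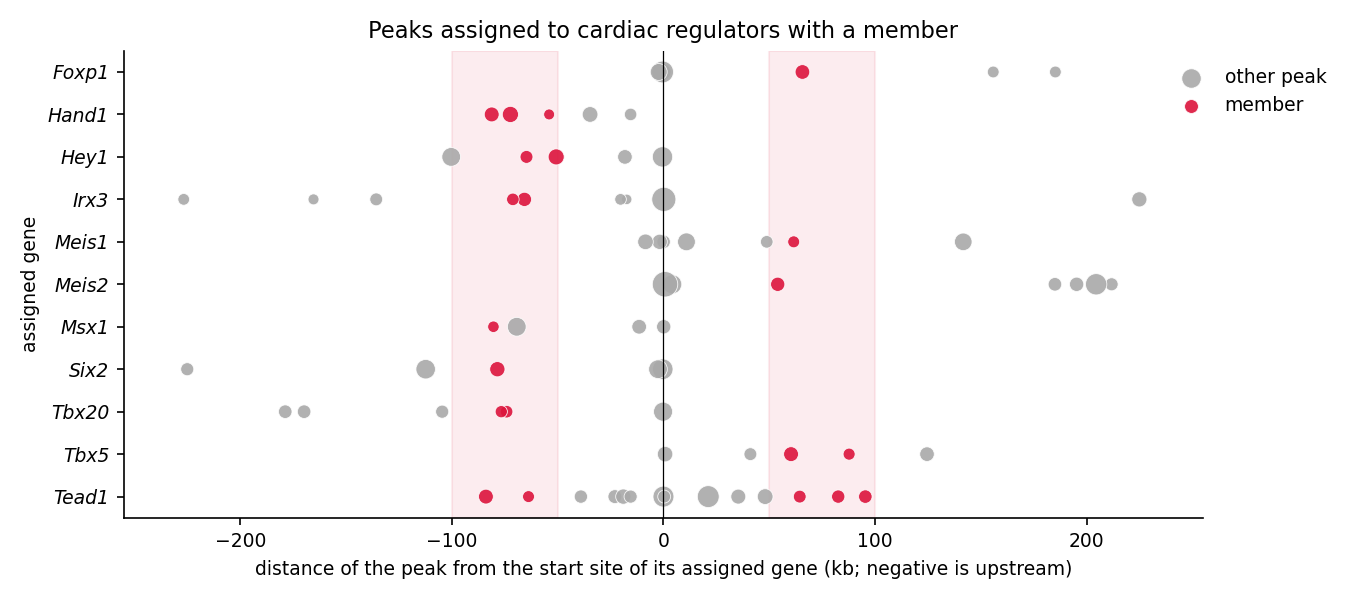
Peaks assigned to the 11 cardiac regulators with a member, by signed distance from the start site in kb, with point area in proportion to peak width; members are red, other peaks grey, and the shaded bands are 50 to 100 kb on either side. Grey points inside the bands are peaks of 1500 bp or more, and peaks beyond 250 kb are not drawn. Hand1 members lie upstream, Tbx5 members downstream and Tead1 members on both sides.

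Among the signalling genes, 25 members were assigned to 17 genes, and 16 of them lay upstream. The Wnt ligands Wnt5a, Wnt2 and Wnt11 had 2 members each. Those of Wnt5a lay 54639 and 88033 bp upstream in introns of Erc2, a gene of the presynaptic active zone, and 1 of those of Wnt2 lay in St7. The Wnt receptor Fzd7, the secreted antagonist Sfrp1 and the nuclear effector Lef1 had 1 each. In the BMP pathway, the ligand Bmp7, the receptors Acvr1 and Bmpr1b and the antagonist Nog had 1, 1, 2 and 1. The Bmp7 member lay 1242 bp from a GENCODE start site of another gene, counted over all transcripts. Jag1, a Notch ligand required for outflow tract development, had 3 upstream, at 58833, 88131 and 99360 bp, and NKX2 letters stood in each. Gli3 had 3 and Gli2 had 1, both of them effectors of Hedgehog signalling. Egfr, Erbb4 and Fgfr1, receptor tyrosine kinases, had 1 each, as did Spry2, an inhibitor of such receptors. NKX2 letters stood in 9 of the 25 members, GATA letters in 6 and Isl1 letters in 2. Over all members the shares were 12.7%, 26.1% and 10.3%, and the counts in this list were not tested against them.

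Ryr2, the calcium release channel of the sarcoplasmic reticulum in heart muscle, had 2 members in its introns, 69913 and 76254 bp downstream and 5204 bp apart, and both held GATA and TEAD letters. Gja1, a gap junction protein, and Kcnd3, a potassium channel, had 1 each. Fhod3, a formin of the sarcomere, and Myom2, a protein of the M-band, had 1 each, and no other sarcomere gene of the list had any. The Myom2 member, 84669 bp downstream, was an array of recurring words at 87.9% of positions, and the part of this in the peak was not tested.

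The remaining lists had few members. Of the SWI/SNF subunits, Arid1b had 3 and Dpf3 had 1. A member 86679 bp upstream of Arid1b had a GC content of 75.0% and a width of 1281 bp. Of the endothelial and blood genes, Runx1, Flt1 and Fli1 had 2 each and Sox17, Kdr and Cdh5 had 1 each. Those of Fli1, an ETS factor, were nearer to Ets1 by GENCODE, at 44264 and 28717 bp. The Flt1 member 91758 bp downstream lay 187 bp from another GENCODE start site of Flt1, counted over all transcripts. GATA letters stood in 5 of the 9 members of this list, and in 26.1% of all members. Of the adhesion and guidance genes, Sema3e had 2 members and Cdh2, Cdh6, Efna5, Efnb2, Plxnd1, Sema6d, Slit3 and Unc5c had 1 each.

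Genes of other lineages had members as well. Synpo2 of smooth muscle, Pax3 and Pax7 of skeletal muscle and Sall4 of pluripotent cells had 1 each, and Klf4 had 2. Of the neural genes, Sox1 had 1 and Olig2 had 2, but the members of Olig2 lay 1374 and 4380 bp from a start site of Gm9881. Apob, a liver gene, had 2, and the housekeeping gene Ywhaz had 3, of which 1 lay 5378 bp from a start site of Gm10384. With no sort named, a peak in a share of the cells and a peak in all of them cannot be told apart.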

How the data were processed

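ATAC-seq of 2 replicates of day 5 CPCs was represented by 1 deposited BED list shared by both, with 26429 lines and 6 columns. Per the study's methods, the authors aligned reads to mm9 with bowtie2, removed duplicates with Picard (version 1.136 in the submitters' processing notes), called peaks per replicate with MACS14 at a fixed shift, dropped blacklisted regions and kept peaks that overlapped between replicates by at least 1 bp with bedtools (2.15). Further correction for the Tn5 cut site was not given in the sources used here. The deposited values are positions in bp and a signed distance to a start site, in bp. HOMER's assignment of start sites is described for the ChIP-Seq data. A list that demands overlap of both replicates has no replicate error, and peak width depends on the depth of the library, which is unknown.

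Distinct intervals were counted once. Midpoints were annotated with GENCODE vM1, and central sequences were read from NCBIM37 (mm9) with pysam 0.24.0. Flanking windows 3 kb away that overlapped a peak or held N were left out (4229 of 4260 kept). Shares have 95% Wilson intervals and differences Newcombe intervals, computed with scipy 1.17.1 and tested on simulated data. The intervals against flanks treat all windows as independent and ignore which flank belongs to which member. Peaks at 10 to 50 kb and 100 to 250 kb, also under 1500 bp, served for comparison. The members, the gene lists, the motifs and the tests were chosen with earlier results of these data known. Named genes were all genes of the lists with a member, the 10 with most members (ties by total width), the 5 widest members, the peaks at each limit and the 3 longest runs. Sequences shown were those of 8 of the 10 members nearest to a cardiac regulator and 3 with a CTCF core. A few items that these rules select are not reported here. Gene symbols for the lists were matched through accessions of a RefSeq table of another build, used for names only. Peak heights and Isl1 knockdown cells were not analysed here. Since nothing was measured per replicate, intervals describe this list and not the variation between the 2 differentiations.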

Additional observations from a re-analysis of the deposited data

How the results depend on the processing

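Alternatives were the rule without its width limit, GENCODE coding start sites in place of the deposited distance, 1 member per run, other windows, flanks at 5 kb, letters read backwards and other definitions of CpG-rich and neighbouring. Of 474 recomputed values, 428 gave the same call as the reported value, or for plain shares fell inside its interval and for counts of motifs stayed close to it. With GENCODE distances the intronic share moved to 39.1% and the intergenic share to 57.5%. The intergenic difference then passed counting error (7.06 points against 10 to 50 kb and -6.55 against 100 to 250 kb), and so did members within 1 kb of any start site (2.30 points above 100 to 250 kb) and the share whose gene has a start site peak (-5.03 points against 10 to 50 kb and 7.66 against 100 to 250 kb). 1 motif, GATA, then stood higher than at 10 to 50 kb. The CpG-rich share was 8.35% without the width limit, 4.41% at a ratio of 0.65 and GC of 55%, and 3.80% over whole peaks. Median GC over 500 bp was 52.2%, and 42.3% of members had a peak within 25 kb. Against flanks, 2 motifs were higher with backward letters, 0 were lower with 200 bp windows and 1 with flanks at 5 kb. Backward TEAD letters (-0.557 points) and CTCF core (-0.0236 points, on 0 members and 1 flanking window) changed sign, neither past counting error.

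All coding genes with a member made up 6.49% without the width limit, 5.35% by GENCODE and 9.82% of those with a peak. Counted over GENCODE's own coding genes, 1519 of 22202 had a peak 50 to 100 kb away. The part of gene naming in the 5.35% was not tested. Smooth muscle genes fell to 0% by GENCODE. Among genes with sequence 50 to 100 kb from their start sites, chosen after seeing the data, shares were 20.4% for all, 57.9% for signalling, 37.5% for sarcomere, 53.8% for endothelial and blood, 0% for smooth muscle, 40.0% for skeletal muscle and for liver, 30.0% for pluripotency and 33.3% for housekeeping. These rest on small lists.

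Leaving out a replicate was not run, since the list holds nothing per replicate. Repeat content was not run, since the genome used has no repeat marks. No paired analysis of samples was possible because no result compares groups of samples and the list carries no replicate values. Each flank belongs to a member, but the shares of members and flanks were compared as independent windows. Paired intervals for these differences were not computed.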
